A study of Mus musculus with 4 samples.

Results

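The genes described here are 38 mouse axon guidance genes of the Eph, ephrin, Slit, Robo and netrin systems, and the measurement is the signal of the transcription factor NR2F1 (COUP-TFI) over them. They comprise 9 EphA receptors, 5 EphB receptors, 5 ephrin-A and 3 ephrin-B ligands, 3 Slits, 4 Robos, 3 netrins and 6 netrin receptors. The signal comes from single-cell CUT&Tag (scCUT&Tag), in which an antibody, here against NR2F1, brings the transposase Tn5 to chromatin and each cut it makes is counted as a cut site. Overlapping peaks of all 4 libraries (1 bp or more) were joined, which gave 263639 merged regions, and a region was given to a gene when its midpoint lay in the gene body or within 5 kb upstream of a transcription start site (TSS). By this rule the 38 genes held 1128 merged regions. Those with peaks in all 4 libraries and with 10 or more cut sites in 2 or more of them were tested, which were 191 regions of these genes among 35770 in the genome.

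Cells came from E10.5 mouse hindbrain, from rhombomere 4 (r4) and tissue next to it, in embryos that all carried the Isl1MN-GFP motor neuron reporter. WT replicates 1 and 2 pooled 26 and 26 embryos, and Fam5snv/snv replicates 1 and 2, homozygous for a noncoding single-nucleotide variant in cRE2, a regulatory element near Gata2, pooled 8 and 16 embryos. The sort was for GFP-positive cells, and its gate was opened to GFP-negative cells at the end, so that cells other than motor neurons can be among the barcodes. The genotype itself cannot be read from counts of cut sites, and the Fam5snv/snv libraries are named as labelled.

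The libraries held 1377 to 2740 cell barcodes and 3083946 to 10341894 cut sites. WT replicate 1 stood apart, with 42168 called peaks against 137996 to 170993 in the other libraries, and with 31.0 Mb of the genome under its peaks against 93.1 to 143.1 Mb. Because peaks were called in each library separately, 99.5% of the cut sites of WT replicate 1 lay in the tested regions, and 74.1% to 79.9% of those of the others. Library pairs shared 3 to 12 cell barcodes. Signal is given below as CPM, the cut sites of a region scaled to a common total by the tested cut sites of its library and TMM normalization. A sum over cells cannot tell fewer cells with signal from less signal per cell.

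Eph receptors are receptor tyrosine kinases whose ligands, the ephrins, are bound to the membrane of the neighbouring cell. Ephrin-As hang from a lipid anchor and ephrin-Bs cross the membrane, and contact usually repels or sorts cells, as at the boundaries between rhombomeres. Slits are secreted ligands that repel growth cones through Robo receptors, and netrins are secreted ligands that attract through Dcc and repel through Unc5 receptors. In the hindbrain these systems steer commissural and cranial motor axons and the cell bodies that migrate after them. NR2F1 is a nuclear receptor known to bind pairs of the hexamer AGGTCA, most readily as a direct repeat with 1 base between the copies.

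Since the repeat is the form of DNA that the antibody's target is known for, the member regions were searched for it on both strands, and the clearest matches are shown here. In the 182 tested member regions outside Dcc, the search found 5 exact direct repeats, in 4 regions of 3 genes, and 32 repeats with 1 mismatch, in 22 regions. The 9 Dcc regions, whose sequences are not shown, held 1 further exact repeat, in Dcc intron e. One exact repeat from each of the 4 regions, all intronic, is shown because it matches at every base. Each is 41 bases of mm10 written 5′ to 3′ on the strand that reads AGGTCA, with the 13-base repeat, spacer included, in capitals. Region letters follow the order of a gene's tested regions of a class along the chromosome.
Ephb2 intron a, chr4:136684318-136684358, minus strand: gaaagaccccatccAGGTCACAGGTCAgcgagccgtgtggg
Ephb2 intron d, chr4:136758642-136758682, minus strand: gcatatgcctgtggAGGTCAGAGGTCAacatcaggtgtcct
Ephb4 intron a, chr5:137358574-137358614, plus strand: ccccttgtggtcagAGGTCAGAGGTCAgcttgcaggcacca
Slit1 intron d, chr19:41670691-41670731, plus strand: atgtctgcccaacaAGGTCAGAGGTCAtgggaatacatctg

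Some of the regions whose values are given below held repeats with 1 mismatch. The substitution is given with the consensus base first, its position in the repeat, counted from 1 at the 5′ end, and then the base found. The 7 shown are in regions of Epha4, Ephb2, Slit3 and Unc5a that range from strong to weak in signal.
Epha4 intron d, chr1:77502975-77503015, minus strand, C5G: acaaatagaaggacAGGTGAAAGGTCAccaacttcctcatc
Ephb2 intron c, chr4:136738602-136738642, minus strand, T11G: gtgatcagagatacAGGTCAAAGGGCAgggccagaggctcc
Ephb2 intron c, chr4:136745618-136745658, minus strand, A6G: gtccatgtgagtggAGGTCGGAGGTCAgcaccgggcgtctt
Slit3 intron j, chr11:35506749-35506789, plus strand, T11A: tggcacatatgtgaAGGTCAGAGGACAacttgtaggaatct
Slit3 intron j, chr11:35514394-35514434, plus strand, T4A: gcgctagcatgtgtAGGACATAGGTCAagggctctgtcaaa
Slit3 intron u, chr11:35694271-35694311, minus strand, G2T: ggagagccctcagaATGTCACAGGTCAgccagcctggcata
Unc5a promoter b, chr13:54996936-54996976, minus strand, T11G: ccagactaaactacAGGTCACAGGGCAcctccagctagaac

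Wide regions hold more matches by their width alone, so member regions were set beside all tested regions in a window of 501 bp about the midpoint. AGGTCA on either strand was in 69 of the 191 member windows (36.1%) and in 33.8% of all 35770. The direct repeat with at most 2 mismatches was in 17 member windows (8.90%) and in 11.4% of all, with at most 1 mismatch in 5 (2.62%) and in 3.0%, and without mismatch in 2 (1.05%) and in 0.590%. Among members the hexamer was in 8 of 39 promoter windows (20.5%) and in 61 of the 152 other windows (40.1%). This split was not made over all tested regions, so it cannot be read as particular to the guidance genes. A match in these letters is a description of the sequence and not a bound site.

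The same letters were searched for in the promoters of the guidance genes. In RefSeq promoters of GRCm38.p6, 250 bases before to 50 after the start, 33 of the 38 genes had an entry, and the entries of Dcc, Efnb3, Ntn1, Slit1 and Unc5d were missing. AGGTCA was in 3 of the 38 member promoters (7.89%), those of Epha2, Robo4 and Ntn4, and in 16.3% of all 32851. No member promoter held the direct repeat with at most 2 mismatches, which 3.86% of all promoters did. The member promoters were richer in CG dinucleotides, with a median of 17.5 in the 250 bases before the start against 6.0 over all. The promoters of Epha7, Efnb1 and Ephb3 are shown from the 250 bases before the start, with each CG in capitals, because their regions had the 3 smallest p-values in the direction of lower signal in Fam5snv/snv. They hold 25, 13 and 16 CG.
Epha7, chr4:28812881-28813130, plus strand: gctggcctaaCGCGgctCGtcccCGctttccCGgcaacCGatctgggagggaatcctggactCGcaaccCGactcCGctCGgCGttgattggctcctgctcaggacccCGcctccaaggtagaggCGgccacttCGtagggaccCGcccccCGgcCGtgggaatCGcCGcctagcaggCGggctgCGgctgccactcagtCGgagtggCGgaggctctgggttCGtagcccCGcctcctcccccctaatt
Efnb1, chrX:99135811-99136060, plus strand: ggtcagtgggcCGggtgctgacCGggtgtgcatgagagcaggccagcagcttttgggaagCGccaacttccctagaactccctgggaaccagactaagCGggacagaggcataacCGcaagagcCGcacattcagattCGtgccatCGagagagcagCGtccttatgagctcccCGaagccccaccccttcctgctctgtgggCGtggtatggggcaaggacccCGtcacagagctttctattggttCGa
Ephb3, chr16:21204545-21204794, plus strand: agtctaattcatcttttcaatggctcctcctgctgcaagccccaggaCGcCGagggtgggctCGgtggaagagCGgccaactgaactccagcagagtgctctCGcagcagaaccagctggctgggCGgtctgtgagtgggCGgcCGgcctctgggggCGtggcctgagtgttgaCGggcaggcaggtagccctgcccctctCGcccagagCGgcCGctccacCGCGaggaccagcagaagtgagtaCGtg

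NR2F1 signal over the guidance genes was mostly intronic. Of the 191 tested regions, 139 had their midpoint in an intron, 39 overlapped 1 kb on either side of a TSS and are called promoter regions, 7 lay in exons and 6 upstream. Promoter regions held 27.0% and 30.8% of the members' cut sites in WT, against 25.4% and 24.8% in Fam5snv/snv. Over all protein-coding genes the share was 70.8% and 70.0% in WT and 65.6% and 64.1% in Fam5snv/snv, and over the semaphorins, plexins and neuropilins, another guidance family, it was 54.6% and 55.5%, and 49.8% and 48.1%. The members' share was below those of both other sets in every library. The Fam5snv/snv mean was 3.85 percentage points below the WT mean, where the WT libraries had an SD of 2.68 and the Fam5snv/snv libraries an SD of 0.410, and no library of one genotype overlapped the other. With 2 libraries per genotype, the exact two-sided permutation test cannot go below p = 0.333, so no test was made of this share. Without WT replicate 2 the Fam5snv/snv minus WT difference was -1.95 points, and with promoters set by region midpoint it was -1.58, where 1 Fam5snv/snv library, at 15.5%, lay between the WT libraries, at 15.3% and 18.4%.

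**Figure D1:**
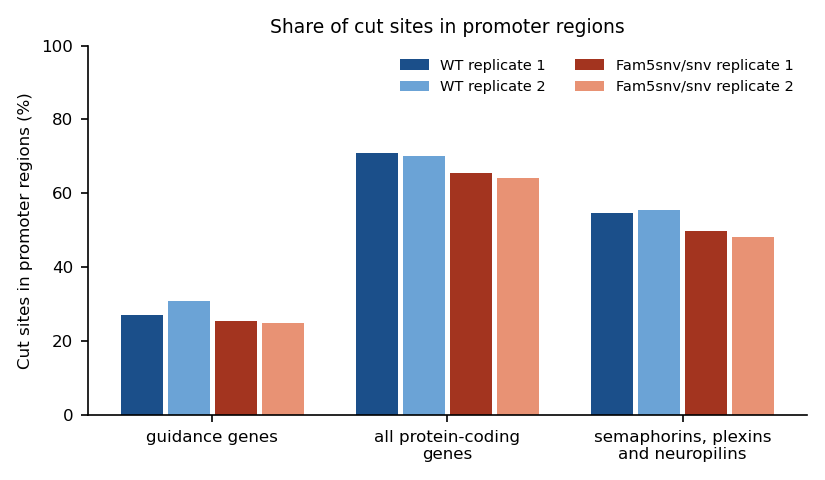
Share of cut sites in promoter regions (percent, y axis) among the tested regions of the guidance genes, of all protein-coding genes and of the semaphorins, plexins and neuropilins, with 1 bar per library and no error bar. The guidance genes lie between 24.8% and 30.8%, below both other sets in all 4 libraries.

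The guidance genes are long, with a median length of 87.8 kb against 17.4 kb over all protein-coding genes. Per length they held as many regions as other genes, with 2.31 tested regions per 100 kb against 2.33 over all genes and 2.93 over the semaphorin family. A peak in every library was found in 16.9% of the members' merged regions and in 13.6% of all merged regions. A peak in both Fam5snv/snv libraries and in neither WT library was found in 119 member regions (10.5%, against 8.79% of all), and these were weak, with a median of 17 and 22 cut sites in the 2 Fam5snv/snv libraries. Slit3 held 25 of them, and Robo1 and Robo2 held 12 each. Only 1 member region, of 36 bp in an intron of Unc5d, had peaks in both WT libraries alone, with 2 and 3 cut sites.

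Of the 38 genes, 36 had at least 1 tested region. Epha1 had 7 merged regions and no cut site in WT replicate 1. Robo4, the Robo of blood vessels, had 4 merged regions with 6, 24, 42 and 52 cut sites in WT replicates 1 and 2 and Fam5snv/snv replicates 1 and 2, and neither gene was tested. A tested promoter region was found for 33 genes. The promoters of Epha8, Slit3 and Dcc had peaks in 3 libraries and none in WT replicate 1, so that these genes were measured outside their promoters.

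Summed over the tested regions of a gene, signal was highest for Slit3, Slit1 and Ephb2, which ranked 10, 12 and 14 of the 14216 genes with a tested region by their WT mean. Slit3 summed 22 regions to 1120 and 1037 CPM in WT, against 1353 and 1470 in Fam5snv/snv. Slit1 summed 14 regions to 1110 and 929 CPM in WT, against 1126 and 1123 in Fam5snv/snv, and Ephb2 summed 19 regions to 1061 and 916, and to 1036 and 1054. These sums grow with the number and width of a gene's regions, so the order of genes is one of total signal and not of signal per length. Robo2 followed at rank 87 and Epha4 at rank 178, and the lowest tested member was Epha6 at rank 11475, with 16.3 and 19.7 CPM in WT, against 14.4 and 18.1 in Fam5snv/snv. Families were not uniform: Slit2, the Slit with the lowest sum, had 84.5 and 121 CPM in WT, against 102 and 124 in Fam5snv/snv.

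**Figure D2:**
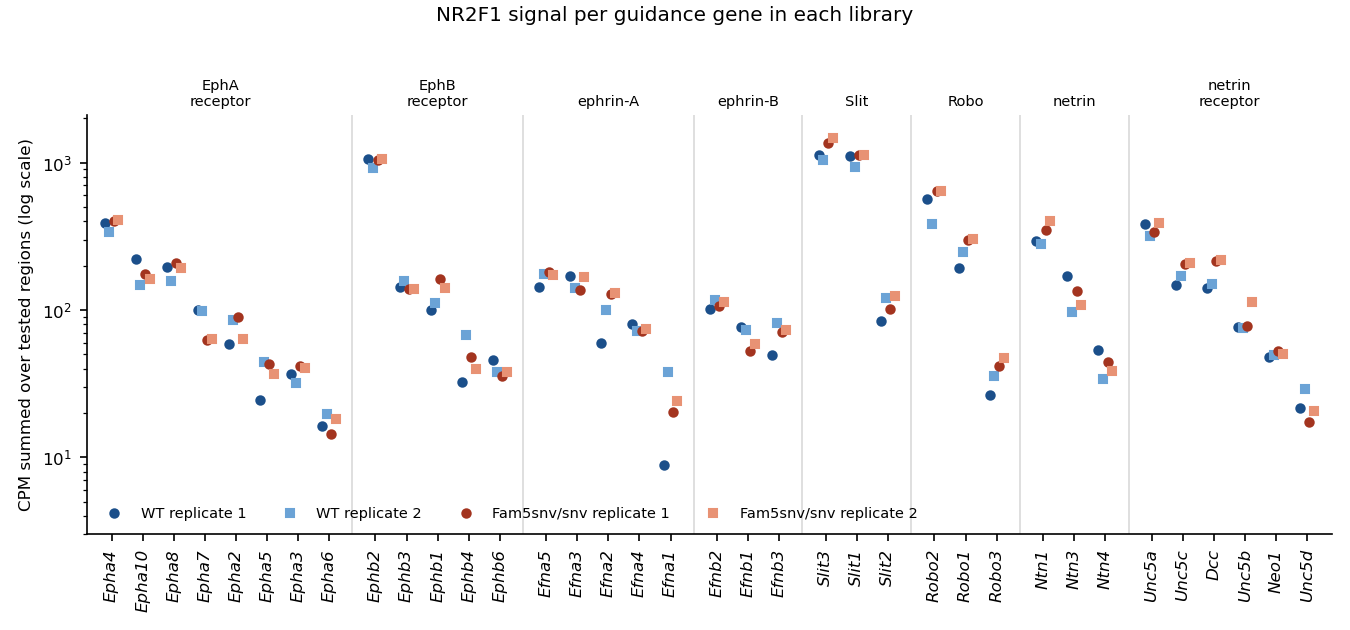
NR2F1 signal summed over the tested regions of each of the 36 guidance genes with a tested region (CPM, log y axis), ordered by family and WT mean, with 1 point per library. Slit3, Slit1 and Ephb2 lie near 1000 CPM in all 4 libraries, and Epha7 and Efnb1 have both Fam5snv/snv points below both WT points.

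Among the receptors for ephrins, the strongest single region was in Ephb2, an EphB receptor that also signals back through its ephrin-B partners. Ephb2 intron c (chr4:136731531-136748121, 16591 bp, within the gene, with its midpoint 45.8 kb from the nearest annotated TSS) had 590 and 400 CPM in WT, against 374 and 358 in Fam5snv/snv. By its WT mean it ranked 10 of 35770 tested regions in the genome, and it was among the first 17 in each library. It held 16 copies of AGGTCA and the 2 repeats shown above. Per kb of called peak it ranked 477 to 2946, so that part of its rank comes from its width. Both Fam5snv/snv libraries were below both WT libraries, by a log2 fold change of -0.43 (SE 0.28, unadjusted p = 0.162, edgeR adjusted p = 0.639), which is within the spread between the libraries.

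Epha4 intron d (chr1:77493541-77507256, 14.7 kb into the gene) was the strongest EphA region, with 296 and 219 CPM in WT, against 234 and 237 in Fam5snv/snv, at rank 130. Epha4 is the EphA receptor that binds ephrin-Bs as well as ephrin-As and is patterned by rhombomere. The WT libraries lay on either side of the Fam5snv/snv libraries, and the log2 fold change was -0.13 (SE 0.24, adjusted p = 0.881). Ephb3 promoter a (chr16:21203825-21208883), the strongest EphB promoter region, had 114 and 105 CPM in WT, against 80.9 and 80.7 in Fam5snv/snv, a log2 fold change of -0.44 (SE 0.19, unadjusted p = 0.0601). Its groups did not overlap, and its peaks covered 1579 and 3690 bp in WT and 4181 and 4984 bp in Fam5snv/snv.

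The promoter of Epha7, an EphA receptor whose truncated isoform can turn repulsion into adhesion, had the smallest p of all 191 member regions. Epha7 promoter a (chr4:28812500-28816029) had 94.2 and 89.7 CPM in WT, against 52.5 and 52.3 in Fam5snv/snv. The replicates of each genotype lay close to each other and the genotypes did not overlap. The log2 fold change was -0.81 (95% interval -1.26 to -0.36, SE 0.19, unadjusted p = 0.00381), and the edgeR p adjusted over all 35770 regions was 0.573. Its called peaks were nearly as wide in both genotypes, a log2 ratio of 0.06, with 3155 and 3499 bp in WT and 3530 and 3401 bp in Fam5snv/snv, 1 peak in each library. Per kb of called peak it had 29.9 and 25.6 CPM in WT, against 14.9 and 15.4 in Fam5snv/snv, a log2 fold change of -0.87 where the median over all tested regions on this scale was -0.76. Epha7 had no other tested region.

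Among the ligands of these receptors, Efnb1, a transmembrane ephrin encoded on the X chromosome, had the other promoter region with an unadjusted p under 0.05 in this direction. Efnb1 promoter a (chrX:99134798-99138015) had 65.9 and 51.7 CPM in WT, against 33.5 and 35.4 in Fam5snv/snv. The groups did not overlap, and the log2 fold change was -0.77 (95% interval -1.29 to -0.25, SE 0.22, unadjusted p = 0.00971, adjusted p = 0.573). The sexes of the pooled embryos were not used here, and a gene on the X chromosome has a copy number that differs with sex. Efnb2 promoter a (chr8:8656616-8662270) had its libraries close together, at 66.2 and 66.5 CPM in WT, against 65.2 and 59.8 in Fam5snv/snv, and Efnb2 exon a had 30.1 and 39.7, and 24.1 and 32.5 CPM. The log2 fold changes were -0.09 (95% interval -0.54 to 0.37) and -0.30 (95% interval -0.96 to 0.35).

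Promoter regions of the ephrin-A ligands had a median of 70.5 CPM in WT, and their other regions one of 12.1 CPM. The promoter regions were also wider, with a median of 6337 bp against 2159 bp. Per kb of called peak the medians in the WT libraries were 27.4 and 13.6 CPM for promoter regions, against 19.5 and 11.4 CPM for the others. Efna3 promoter a (chr3:89314455-89324505, a region of 10051 bp) had 136 and 128 CPM in WT, against 102 and 109 in Fam5snv/snv, groups that did not overlap, at a log2 fold change of -0.33 (SE 0.20, unadjusted p = 0.144). Efna2 promoter a went the other way, with 37.5 and 59.1 CPM in WT, against 82.6 and 78.9 in Fam5snv/snv (log2 fold change 0.74, SE 0.26, unadjusted p = 0.0229, adjusted p = 0.573), and it was the only member promoter region with an unadjusted p under 0.05 in this direction. Its peaks covered 1707 and 5781 bp in WT and 9542 and 9354 bp in Fam5snv/snv. Efna2 exon a (chr10:80187594-80191420) had 18.6 and 31.7 CPM in WT, against 25.7 and 27.1 in Fam5snv/snv, groups that overlapped.

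Tested Slit regions were mostly intronic, 36 of 39. Slit3 intron j (chr11:35499197-35516331, 387 kb into the gene) had 253 and 205 CPM in WT, against 238 and 246 in Fam5snv/snv, at rank 192, and its groups overlapped (log2 fold change 0.08, 95% interval -0.46 to 0.62). Slit1 intron d, with the exact repeat shown above, had 161 and 114 CPM in WT, against 111 and 98.5 in Fam5snv/snv. Slit1 promoter a (chr19:41737589-41747575) had 80.2 and 73.2 CPM in WT, against 93.4 and 86.5 in Fam5snv/snv, a log2 fold change of 0.23 (SE 0.20, unadjusted p = 0.281).

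Robo2, a Slit receptor of motor and commissural axons, held the densest member region. Robo2 intron j (chr16:74338031-74339958) is a region of 1928 bp, where the median over all tested regions was 1922 bp. Its midpoint lies within the gene, 71.9 kb from the nearest annotated TSS, and it holds 1 peak in every library. It had 154 and 87.2 CPM in WT, against 124 and 139 in Fam5snv/snv. Per kb of called peak it had 106 and 59.3 CPM in WT, against 66.4 and 72.4 in Fam5snv/snv, and on this scale its rank of 35770 was 206 and 216 in WT, and 49 and 16 in Fam5snv/snv. The WT libraries lay on either side of the Fam5snv/snv libraries, and the log2 fold change was 0.13 (95% interval -0.56 to 0.82). Robo2 promoter a (chr16:74409616-74413478) was even across libraries, with 36.8 and 34.5 CPM in WT, against 34.9 and 34.0 in Fam5snv/snv (log2 fold change -0.05, 95% interval -0.56 to 0.47). RefSeq places further starts of Robo2 upstream, which the gene models used for the regions do not hold.

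**Figure D3:**
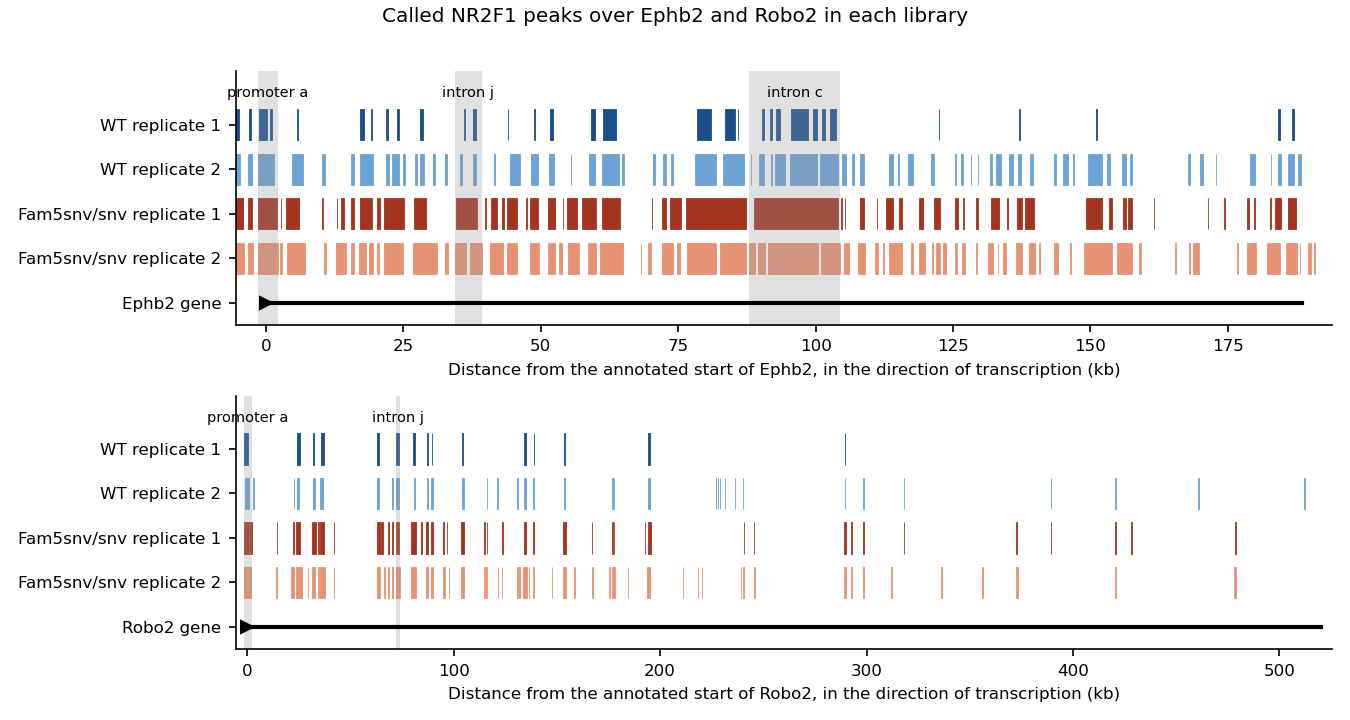
Called NR2F1 peaks of each library along Ephb2 and Robo2 (x axis, kb from the annotated start in the direction of transcription), with the gene as a black line and regions named in the text shaded grey. Peaks of the Fam5snv/snv libraries cover more bases and are more numerous than those of WT replicate 1, and Robo2 intron j holds 1 peak in each of the 4 libraries.

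Netrin regions had a median of 15.6 CPM in WT and netrin receptor regions one of 11.9 CPM, against 15.8 CPM over all member regions. Ntn1, the main netrin of the floor plate, had its strongest intronic region 172 kb from the nearest annotated TSS. This region, Ntn1 intron a (chr11:68210756-68218714), had 104 and 86.2 CPM in WT, against 96.2 and 107 in Fam5snv/snv. Ntn3 promoter a (chr17:24205056-24212867) had 160 and 89.0 CPM in WT, against 113 and 88.3 in Fam5snv/snv. It is the only member region with a start of a coding transcript of another gene, Tbc1d24, in it or within 1 kb, so its signal cannot be given to Ntn3 alone. Efna4 promoter a and Efnb3 promoter a have, in the same way, starts of noncoding transcripts of the coding genes Adam15 and Wrap53. Dcc intron b, 693 kb into the receptor gene on chromosome 18, had 58.5 and 51.7 CPM in WT, against 65.3 and 61.5 in Fam5snv/snv (log2 fold change 0.20, SE 0.20, unadjusted p = 0.342). Unc5a promoter b (chr13:54990883-54999327), at an internal start of this repulsive receptor, had 169 and 132 CPM in WT, against 124 and 124 in Fam5snv/snv. Of these netrin and netrin receptor regions, those of Dcc and Unc5a had groups that did not overlap, in opposite directions, and none had an unadjusted p under 0.05.

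The comparison of genotypes asks whether NR2F1 signal over these genes differed in embryos with the variant. No member region passed an adjusted p of 0.05 with edgeR's quasi-likelihood test, nor did any of the 35770 regions (0% called). At an unadjusted p under 0.05, 16 member regions were higher in Fam5snv/snv (8.38%, where 5.29% of all tested regions were) and 2 were lower (1.05%, where 3.37% of all were). With scaling to all cut sites in called peaks, 8 were higher (4.19%, where 3.86% of all were) and 2 lower, and per covered base 0 were higher and 25 lower (0.0112% and 12.7% of all). Both Fam5snv/snv libraries lay above both WT libraries in 64 member regions (33.5%, against 23.2% of all) and below both in 22 (11.5%, against 21.4%). Most member regions, 152 of 191, were outside promoters, unlike the set of all tested regions. Over the regions of all genes outside promoters, 7.73% were higher and 1.34% lower at that unadjusted p in the main fit. In these regions both Fam5snv/snv libraries lay above both WT libraries in 30.8% and below both in 11.3%. The median log2 fold change was 0.18 over member regions and 0.02 over all, and 125 of 191 were above 0.

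Promoter regions and other regions had medians of opposite sign, for members as for all genes, and this difference was not tested. The 39 member promoter regions had a median log2 fold change of -0.15, and all 12605 promoter regions one of -0.21. The 152 other member regions had a median of 0.31, and the 11944 other regions of all genes one of 0.21. Of the 16 member regions with higher signal at an unadjusted p under 0.05, 15 were outside promoters (9.87% of such member regions, against 7.73% over all genes). The other was a promoter region (2.56% of member promoter regions, against 1.52% over all genes). All 16 lay in 8 genes, with 3 each in Slit3, Robo2, Dcc and Unc5c and 1 each in Ephb2, Slit1, Slit2 and Efna2.

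The 3 member regions of smallest p with higher signal in Fam5snv/snv were 1 intronic region of Ephb2 and 2 of Slit3. Ephb2 intron j (chr4:136796661-136801672, 36.7 kb from the nearest annotated TSS) had 10.5 and 5.63 CPM in WT, against 26.5 and 23.0 in Fam5snv/snv, a log2 fold change of 1.61 (SE 0.41, unadjusted p = 0.00559, adjusted p = 0.573). Slit3 intron k (chr11:35522063-35528639) had 16.8 and 29.2 CPM in WT, against 44.6 and 62.1 in Fam5snv/snv, a log2 fold change of 1.21 (SE 0.32, unadjusted p = 0.00706). Slit3 intron u (chr11:35692119-35695058) had 7.71 and 7.39 CPM in WT, against 18.3 and 21.6 in Fam5snv/snv, a log2 fold change of 1.40 (SE 0.38, unadjusted p = 0.00773). In each of the 3 regions the groups were apart.

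**Figure D4:**
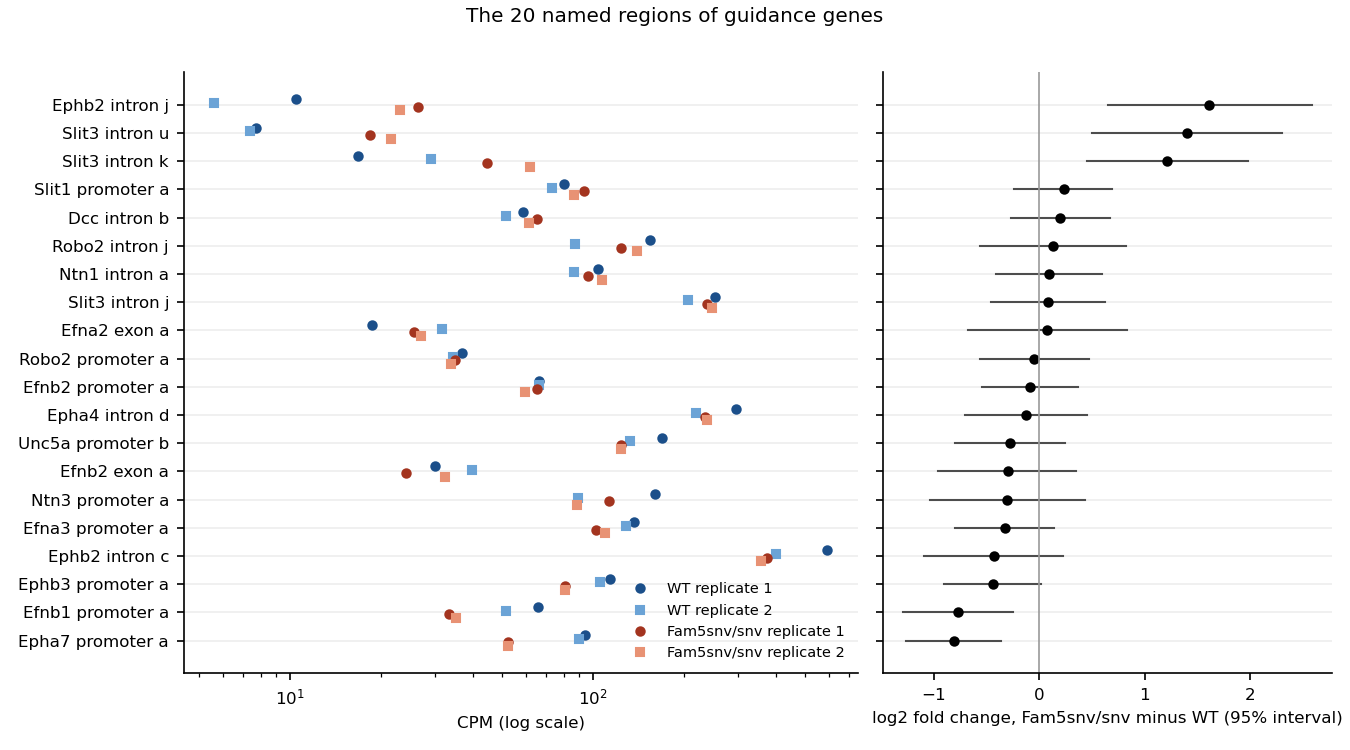
The 20 named regions, with CPM in each library on a log axis at left and the log2 fold change of Fam5snv/snv minus WT with its 95% interval at right, ordered by fold change. The intervals of Epha7 promoter a, Efnb1 promoter a, Ephb2 intron j, Slit3 intron k and Slit3 intron u leave out 0, before adjustment over all regions.

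A library counts cut sites only within its own peaks, and the width of those peaks moved with the fold change. Called peaks in Ephb2 intron j covered 637 and 691 bp in WT and 3894 and 4302 bp in Fam5snv/snv, and per kb of called peak it had 16.5 and 8.14 CPM in WT, against 6.81 and 5.35 in Fam5snv/snv. Over the 191 member regions, the log2 fold change and the log2 ratio of covered bases had a Pearson r of 0.69 and a Spearman rho of 0.75, and over all 35770 regions 0.79 and 0.79, a description of regions that share 4 libraries and the same peaks. The median of that ratio was 0.96 for members and 0.80 for all regions, so that covered length was larger in Fam5snv/snv for both. Per kb of called peak, 1 member region (0.524%, against 0.749% of all) had both Fam5snv/snv libraries above both WT libraries, and 115 (60.2%, against 61.7%) had both below. Among the 36 member regions that peaks covered to at least 50% in every library, fitted on their own scale, 8 were higher and 2 lower at an unadjusted p under 0.05, where 6.54% and 3.35% of all 8900 such regions were. The part of covered length in the genotype differences was not tested beyond these values.

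**Figure D5:**
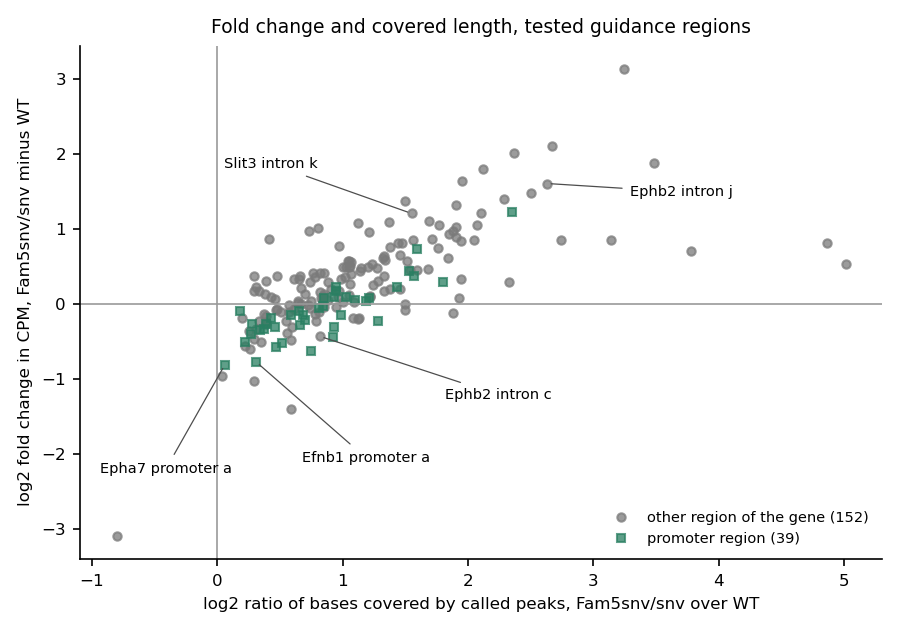
Each tested guidance region by the log2 ratio of bases under called peaks (x axis, Fam5snv/snv over WT) and the log2 fold change in CPM (y axis), with promoter regions as green squares and other regions as grey circles. The points rise together (Pearson r 0.69), Epha7 promoter a lies near a ratio of 0 at -0.81, and Ephb2 intron j lies at a ratio of 2.63 and a fold change of 1.61.

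DESeq2, fitted to the same counts, called 4 member regions past an adjusted p of 0.05. Epha7 promoter a (adjusted p = 0.00204) and Efnb1 promoter a (adjusted p = 0.0414) were lower in Fam5snv/snv, where 0.542% of all regions were called lower. Ephb2 intron j (adjusted p = 0.0281) and Slit3 intron k (adjusted p = 0.0377) were higher, where 1.02% of all regions were called higher. Over the alternatives to the main edgeR fit, the adjusted p of Epha7 promoter a ran from 0.00204 to 1.000, and those of Efnb1 promoter a, Ephb2 intron j and Slit3 intron k from 0.00600, 0.00889 and 0.000967 to 1.000. With edgeR, leaving out WT replicate 1 gave 11 calls among members, 8 higher and 3 lower (4.17% and 1.17% of all regions), and leaving out WT replicate 2 gave 38, 28 higher and 10 lower (11.4% and 6.21% of all). In these fits the remaining WT library is assumed to vary as the other genotype does. Epha7 promoter a and Ephb2 intron j were the member regions called in both fits and by DESeq2. The share of all regions called in all of these was not counted, so this overlap cannot be set against a background. Leaving out either Fam5snv/snv library gave no call.

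By gene sums, no guidance gene passed an adjusted p of 0.05, and neither did any of the 14216 genes (0% called, smallest adjusted p 0.516). At an unadjusted p under 0.05, 7 of 36 guidance genes were higher in Fam5snv/snv, where 5.89% of all genes were, and 2 were lower, where 2.99% of all were. With scaling to all cut sites in called peaks, 0 were higher and 2 lower, and with all merged regions of a gene 4 were higher and 1 lower. The shares over all genes in these settings are not given here, so these counts have no background beside them. Both Fam5snv/snv libraries lay above both WT libraries for 14 genes (21.6% of all genes did) and below both for 4 (20.8% of all did). The median log2 fold change was 0.11 over the 36 genes and -0.01 over all.

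Dcc, the attractive netrin receptor, had the smallest p of the 7, with 141 and 149 CPM in WT, against 216 and 218 in Fam5snv/snv over 9 intronic regions (log2 fold change 0.58, SE 0.15, unadjusted p = 0.00443). Called peaks in these regions covered 4146 and 7487 bp in WT and 11382 and 12676 bp in Fam5snv/snv. Per kb of called peak Dcc had 34.0 and 19.9 CPM in WT, against 18.9 and 17.2 in Fam5snv/snv, the opposite direction. The other genes with higher sums were the ligand genes Slit3 (0.39), Efna2 (0.70) and Ntn1 (0.39) and the receptor genes Ephb1 (0.51), Robo1 (0.45) and Unc5c (0.38), values that are log2 fold changes. The genes with lower sums were Epha7 and Efnb1. Epha7 had 99.7 and 98.3 CPM in WT, against 62.3 and 64.0 in Fam5snv/snv (log2 fold change -0.65, SE 0.16, unadjusted p = 0.00355), and Efnb1 had 77.1 and 72.8 CPM, and 53.0 and 58.4 CPM (-0.43, SE 0.17, unadjusted p = 0.0396). Since Epha7 has 1 tested region, its sum repeats its promoter under another scaling.

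Medians of the families ran from -0.11 to 0.45. The 3 tested Robos had a median log2 fold change of 0.45. All 3 had non-overlapping groups with Fam5snv/snv higher (21.6% of all genes did). Robo2 had 567 and 381 CPM in WT, against 645 and 643 in Fam5snv/snv. The unadjusted edgeR p was 0.0274 for Robo1, 0.0551 for Robo2 and 0.0633 for Robo3. Per kb of called peak, Robo1 and Robo3 had both Fam5snv/snv libraries below both WT libraries, and the groups of Robo2 overlapped. The 6 netrin receptors had a median log2 fold change of 0.20, the 3 Slits 0.14, the 8 tested EphA receptors 0.12 and the 3 ephrin-Bs 0.00. The 5 ephrin-As had one of -0.04, the 3 netrins -0.08 and the 5 EphB receptors -0.11. Neo1, the other Dcc-type receptor, had its libraries close together, with 48.2 and 49.7 CPM in WT, against 52.4 and 50.4 in Fam5snv/snv. No difference between families was tested.

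Of 34 genes that act downstream of or beside these receptors, all were tested, and 6 had an unadjusted p under 0.05, all higher in Fam5snv/snv. They were Srgap1 and Srgap3, GTPase-activating proteins that bind Robo, the kinase Fyn, the netrin receptor Dscam, the adhesion protein Flrt1 and the Robo ligand Nell2. Srgap3 had 185 and 212 CPM in WT, against 334 and 338 in Fam5snv/snv, and Srgap1 had 157 and 155 CPM, and 232 and 262 CPM. The median log2 fold change of this list was 0.16. Of the 31 semaphorins, plexins and neuropilins, 30 were tested, with 8 higher and 0 lower at an unadjusted p under 0.05 and a median of 0.26, and no gene of either list passed an adjusted p of 0.05. Over all genes, 5.89% were higher and 2.99% lower at that p, and no list was compared with another.

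Markers of the cell types that the sort could hold were read in the same way, although NR2F1 signal over a gene is not its expression. Of 8 markers of r4 motor neurons, 7 were tested, Mnx1 had no tested region, and all 7 had both Fam5snv/snv libraries above both WT libraries (21.6% of all genes did), with summed signal of 849 and 773 CPM in WT, against 1048 and 1087 in Fam5snv/snv and a median log2 fold change of 0.52. The 7 tested genes held 11 distinct tested regions, and the regions of Slc18a3, which lies within the Chat gene, were also counted for Chat. Chat and Slc18a3 are therefore not separate markers, and the summed signal counts their shared cut sites more than once. Over the 11 distinct regions the median log2 fold change was 0.24, and all 11 were above 0. In 5 of them both Fam5snv/snv libraries lay above both WT libraries (23.2% of all regions did), and 0 had an unadjusted edgeR p under 0.05. Per kb of called peak their medians were 28.9 and 15.2 CPM in WT, against 15.4 and 11.9 in Fam5snv/snv. Isl1, Hoxb1, Chat and Slc18a3 were higher at an unadjusted p under 0.05 (5.89% of all genes were), and Isl1, for which the reporter is named, had 87.4 and 104 CPM in WT, against 118 and 157 in Fam5snv/snv. The 5 neural progenitor markers had a median of -0.03 and summed to 574 and 639 CPM, and to 627 and 621 CPM, and the 5 interneuron markers had a median of 0.27 and summed to 199 and 270 CPM, and to 283 and 290 CPM. The 3 tested markers of neural crest and glia, Sox10, Foxd3 and Erbb3, had a median of -0.17 and summed to 65.6 and 129 CPM in WT, against 97.8 and 80.5. Markers of mesenchyme (4 of 4 tested) had a median of 0.25, with sums of 86.3 and 151 CPM, against 127 and 143. Those of endothelium (3 of 5, without Kdr and Tek) had 0.53, with 117 and 123 CPM, against 180 and 167, and those of blood (2 of 5, without Gata1, Ptprc and Hbb-y) had 0.02, with 104 and 122 CPM, against 108 and 127. The part of these in the guidance gene results was not tested.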

How the data were processed

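The authors deposited, for each of 4 libraries, called barcodes, peaks and a matrix of raw cut-site counts (peaks by barcodes), made with Cell Ranger ATAC on mm10 per the submitters' notes. The matrix headers give software version 1.2.0. Peaks and cells were called in each library separately, so a library has counts only inside its own peaks, and a count grows with peak width. Counts were summed over barcodes, with no filter on cells, doublet caller or clustering. Merged regions were annotated with GENCODE M21 protein-coding genes. Regions and gene sums were tested with edgeR 4.0.16 (quasi-likelihood, TMM, genotype only, R 4.3.3) and adjusted by Benjamini-Hochberg over all features. DESeq2 1.42.0, other scalings and filters, a replicate block and leaving out libraries were alternatives. The fits were tested on simulated data. The fit over regions left 2 residual degrees of freedom, at a biological coefficient of variation of 0.305. Values per kb divide by the bases under a library's own peaks.

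Values per library are given for the strongest WT promoter region and other region of each family and for the 3 regions of smallest p in each direction. Other members named were singled out after their values were seen. The members and lists were chosen with earlier results of these data known. Nothing states that same-numbered replicates pair, so p-values measure the spread between libraries of pooled embryos. Sequences were read from GRCm38.p6 and RefSeq. A marker gene is not reported here.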

Additional observations from a re-analysis of the deposited data

How the results depend on the processing

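The count of member regions past an adjusted p of 0.05 was 0 in the main fit, 4 with DESeq2 and 0 to 38 when 1 library was left out (11 without WT replicate 1, 38 without WT replicate 2). The count of genes was 0 in the main fit and 0 with DESeq2, where 46 of all 14216 genes passed. It rose when either WT library was left out, for members as for all genes, in fits that hold 1 WT library. The median log2 fold change of member regions, 0.18, was 0.06 with scaling to all cut sites in called peaks (-0.09 over all regions), 0.80 with no peak required in every library (0.61 over all), and -0.75 per covered base (-0.76 over all). The difference in promoter share, -3.85 points, was -1.58 with promoters set by midpoint and ran from -5.74 to -1.95 with 1 library left out. For same-numbered libraries the correlation of deviations was 0.025, and nothing in the labels says that a number marks a shared day or litter, so the main fit has no block. With a replicate block 0 regions passed. At an unadjusted p under 0.05, 12 were then higher and 2 lower (4.67% and 2.70% of all regions were), and the median was 0.20 (0.06 over all). Gene sums gave 5 higher and 1 lower in that setting, and the shares over all genes are not given here.

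The log2 fold changes of some named regions turned sign, and the cause was not tested. Per covered base, relative to the median of all regions, they were -0.26 for Ephb2 intron j, -0.18 for Slit3 intron u, -0.17 for Ntn1 intron a, -0.11 for Slit3 intron j, -0.06 for Slit1 promoter a and 0.02 for Efnb2 promoter a. With scaling to all cut sites they were -0.05 for Slit3 intron j, -0.04 for Ntn1 intron a, -0.03 for Efna2 exon a and -0.02 for Robo2 intron j. With 1 library left out they ran from -0.33 to 0.10 for Epha4 intron d, -0.27 to 0.51 for Efna2 exon a and -0.67 to 0.17 for Ntn3 promoter a (highest, lowest and highest without WT replicate 1), and from -0.22 to 0.59 for Robo2 intron j, -0.06 to 0.23 for Slit3 intron j and -0.04 to 0.23 for Ntn1 intron a (lowest without WT replicate 2). With at least 20 cut sites in every library they were 0.06 for Robo2 promoter a and 0.02 for Efnb2 promoter a, and with regions covered to at least 50% in every library 0.02 for Ntn3 promoter a. Epha7 promoter a and Efnb1 promoter a were below 0 in all 12 alternatives, from -0.93 to -0.12 and from -0.93 to -0.34.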

Other observations

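Slit3 intron v (chr11:35695700-35701909, 578 kb into the gene) held 8 direct repeats with 1 mismatch, each A8G on the plus strand and each 38 bases after the one before it. The first lies at chr11:35697769-35697809.
Slit3 intron v: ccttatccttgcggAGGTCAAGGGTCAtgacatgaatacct
Signal there was 13 and 32.0 CPM in WT, against 41.6 and 40.5 in Fam5snv/snv (log2 fold change 0.87, SE 0.39, unadjusted p = 0.0638). Whether reads map uniquely within the array was not tested, and the region was singled out after its sequence was seen.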
